A study of Mus musculus with 44 samples.

Results

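The genes described are the 4 subunits that form the AMPA receptor channel (Gria1, Gria2, Gria3 and Gria4) and 6 of its auxiliary proteins (Cacng2, Cacng3, Cacng8, Cnih2, Cnih3 and Shisa9), as measured by TRAP-seq in mouse hippocampus. They were chosen by name, by matching the Ensembl identifiers of the count table to symbols in the GENCODE annotation of GRCm38, and all 10 were found among the 55335 genes of the table. AMPA receptors are glutamate-gated ion channels that carry most of the fast excitatory current in the brain, and their number at a synapse rises and falls with learning. Each channel is a tetramer of GluA1 to GluA4, the products of Gria1 to Gria4. Transmembrane AMPA receptor regulatory proteins (TARPs) and cornichons travel with the channel, help it to reach the surface and slow its closing, while Shisa9, also called CKAMP44, alters its recovery from desensitization.

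The libraries came from male Emx1-NuTRAP mice, in which Cre under control of Emx1 (Emx1-IRES-Cre) switches on tags on ribosomes and on the nuclear envelope in cells that have expressed Emx1. These are mostly excitatory forebrain neurons, but Emx1 progenitors also give rise to some astrocytes, and Cre is active from development onward in every group. Early-life exercise (ELE) mice had a running wheel from postnatal day 21 to 41 and sedentary mice had a standard cage; tissue was taken the day after. In the simultaneous isolation (SIT), ribosome-bound mRNA and nuclei were taken from the pooled left and right hippocampus of 1 mouse, with 4 ELE and 4 sedentary mice. In the separate isolation the RNA came from 1 whole hippocampus, left or right, with 3 ELE and 3 sedentary mice for each side, so that left and right libraries came from different mice. Litters were divided at random between wheel and standard cages. Mouse numbers starting with TG7.3, TG9.1 and TG9.2 each occurred in the left and right ELE and sedentary groups. The fits below did not pair mice unless stated.

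Library totals ranged from 45895097 to 65767802 counts, with a median of 54422374.5. Levels are given as counts scaled to the library total (CPM) after normalization by trimmed mean of M values (TMM), and comparisons between genes as CPM per kilobase of exon. The excitatory markers Slc17a7 (lowest 3049 CPM) and Camk2a (lowest 2605 CPM) were abundant in the 17 libraries compared. In the same libraries the 7 interneuron markers summed to between 41.1 and 77.2 CPM, the 5 microglial markers to between 1.72 and 6.60 CPM, the 5 astrocyte markers to between 1682 and 5123 CPM, the 5 oligodendrocyte markers to between 1898 and 3167 CPM and the 5 choroid plexus markers to between 17.27 and 1276 CPM. Of the 8 SIT libraries, the 5 that the study compared were used (ELE mice NT6.303, TG7.4.1 and TG7.4.2, sedentary mice NT6.305 and NT6.306). The other 3 were set aside: NT7.2.4 and NT7.2.3 (both sedentary), whose interneuron markers summed to 868.5 and 830.7 CPM and microglial markers to 156 and 151 CPM, and ELE mouse NT6.304, with 110 and 8.20 CPM. In bulk RNA, fewer cells of a type and less RNA per cell cannot be told apart.

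One codon of the pore loop carries the best known difference between the subunits. The Gria2 pre-mRNA is edited there by ADAR2 (Adarb1), which changes the glutamine codon to one read as arginine and makes the channel nearly impermeable to calcium. The 30 bases around this codon, read from the GENCODE transcript with the longest coding sequence, are shown with the codon in capitals because the ratio of Gria2 to the other subunits is one of the measures below.
Gria1: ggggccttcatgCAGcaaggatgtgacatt
Gria2: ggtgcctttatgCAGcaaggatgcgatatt
Gria3: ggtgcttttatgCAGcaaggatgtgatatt
Gria4: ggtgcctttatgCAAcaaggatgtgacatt
In GRCm38 these lie at chr11:57243082-57243111 (plus strand), chr3:80706896-80706925 (minus strand), chrX:41610253-41610282 (plus strand) and chr9:4464122-4464151 (minus strand), in exon 11 of each transcript. The codon is CAG in Gria1, Gria2 and Gria3 and CAA in Gria4, glutamine in all. Between 26 and 28 of the 30 bases were shared by any pair of subunits. The counts are sums over whole genes and carry no information on editing.

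Among the pore subunits, Gria1 was far above the others. Gria1 (chr11:57011387-57330244, plus strand), the subunit whose delivery to synapses is tied to long-term potentiation, had a level of 169.9 ± 15.5 CPM per kb (SD, n = 17). Gria2 (chr3:80681450-80802835, minus strand), which sets calcium permeability, stood at 25.8 ± 2.88 CPM per kb. Gria3 (chrX:41400854-41678601, plus strand), the usual partner of GluA2 in receptors that cycle constitutively, stood at 14.1 ± 1.497 CPM per kb. Gria4 (chr9:4417896-4796234, minus strand), abundant in interneurons and in the immature hippocampus, was lowest at 2.91 ± 0.443 CPM per kb. As shares of the summed per-length level of the 4 subunits, Gria1 made up 79.9% ± 1.17 (SD, n = 17), Gria2 12.1% ± 0.831, Gria3 6.61% ± 0.405 and Gria4 1.38% ± 0.214. The range of the Gria1 share over the 17 libraries was 77.5% to 81.7%. These shares depend on the length taken for each gene, because Gria2 and Gria3 have long alternative exons: the merged exons of Gria2 span 15548 bp and its longest transcript 10371 bp, and those of Gria3 9859 and 5206 bp. With the longest transcript as length the medians were 72.87% for Gria1, 14.98% for Gria2 and 10.64% for Gria3, in the same order.

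Cnih2 was the most abundant of the 6 auxiliary members by a wide margin. Cnih2 (chr19:5092868-5098521, minus strand), the cornichon that dominates in hippocampal pyramidal cells, had 916.5 ± 101.6 CPM per kb (SD, n = 17), above Gria1 in all 20 libraries. Cacng8 (chr7:3390683-3415648, plus strand), the TARP characteristic of the hippocampus, followed at 124 ± 16.1 CPM per kb. Cnih3 (chr1:181352628-181460641, plus strand), the second cornichon that acts on AMPA receptors, was at 47.5 ± 9.84 CPM per kb. Cacng3 (chr7:122670492-122769393, plus strand) had 32.2 CPM per kb and Cacng2, or stargazin (chr15:77991748-78120028, minus strand), 20.8 ± 3.23 CPM per kb. Shisa9 (chr16:11984113-12270902, plus strand) was the lowest of the 6 auxiliary members at 9.31 ± 1.18 CPM per kb. Cnih2 therefore made up 79.6% ± 1.54 of the summed per-length level of the 6 auxiliary transcripts, and among the 3 TARPs Cacng8 made up 69.9% ± 3.00, Cacng3 18.4% ± 2.86 and Cacng2 11.8% ± 1.54.

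In the order of all 10 genes, most neighbours kept their order in every one of the 17 libraries. The exception was Gria2 above Cacng2, which held in 15 of 17. The ranges of Cnih2 and Gria1, Cacng8 and Cnih3, Gria3 and Shisa9, and Shisa9 and Gria4 did not meet. Those of Gria1 and Cacng8, Cnih3 and Cacng3, Cacng3 and Gria2, Gria2 and Cacng2, and Cacng2 and Gria3 did. With the longest transcript as length Gria2 moved above Cacng3, and Gria3 above Cacng2, so the order in the middle of the list depends on the length used. Across the 17 libraries the ratio of the highest to the lowest level in CPM lay between 1.38 for Gria1 and 1.95 for Cacng2, with 1.92 for Cnih3.

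**Figure D1:**
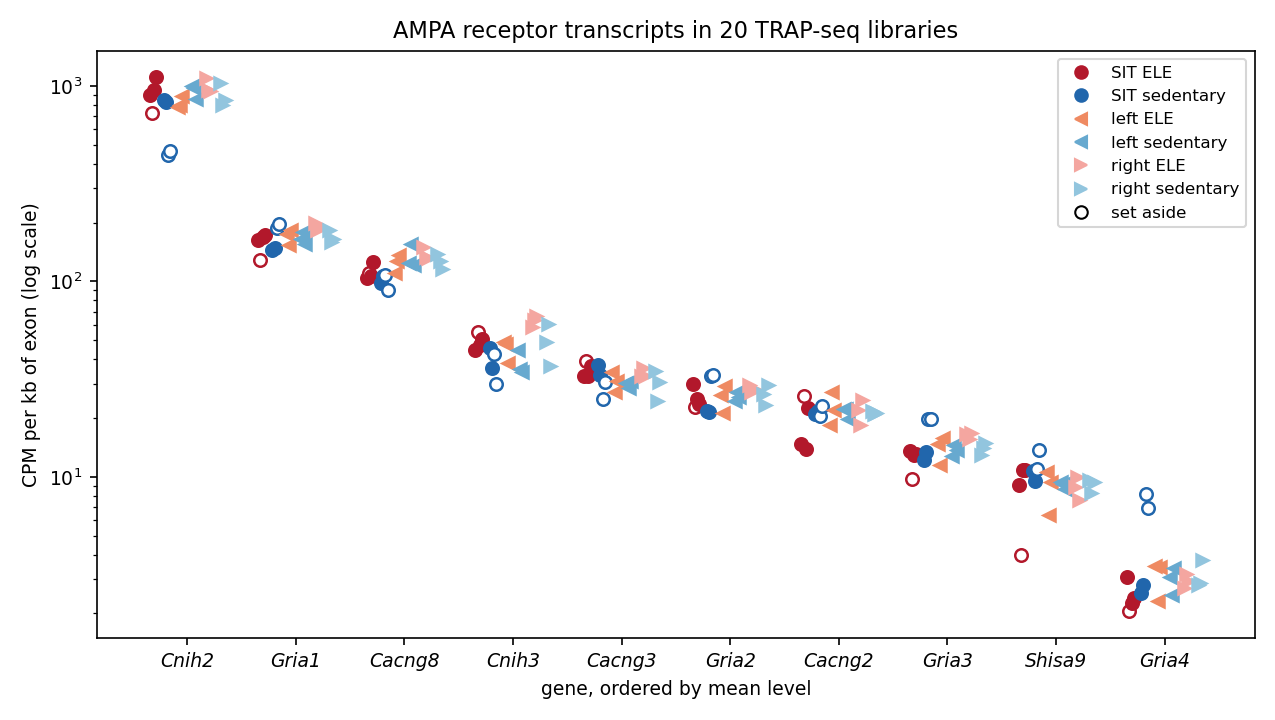
Level of each gene in the 20 libraries, in CPM per kb of exon on a log axis, with one point per mouse, colour for exercise, marker for isolation and side, and open symbols for the 3 SIT libraries set aside. Cnih2 is highest and Gria4 lowest, and the open symbols of 2 sedentary mice stand apart for Cnih2 (low) and Gria4 (high).

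The question of the main comparison was whether transcripts of the AMPA receptor differ after ELE. In the SIT libraries several of the most abundant members had slightly higher values in ELE mice, none past the threshold of the study, an unadjusted p under 0.05 with a change of over 1.31-fold in either direction. Gria1 had 979.7, 1025 and 1049 CPM in ELE mice and 873 and 897.8 CPM in sedentary mice. Gria2 had 366.1, 389.8 and 464.5 CPM against 335.4 and 336.8 CPM. Cnih2 had 1224, 1303 and 1513 CPM against 1137 and 1161 CPM. In these 3 genes each ELE mouse lay above both sedentary mice, a separation seen in either direction in 22.1% of the 18238 genes tested. By edgeR's quasi-likelihood test the log2 fold changes were 0.20 for Gria1 (SE 0.0768, adjusted p = 0.905), 0.27 for Gria2 (SE 0.107, adjusted p = 0.905) and 0.23 for Cnih2 (SE 0.0982, adjusted p = 0.906). Without ELE mouse NT6.303 Gria2 was at 0.17, and without ELE mouse TG7.4.2 Cnih2 was at 0.13, neither at an unadjusted p under 0.05 any longer. Leaving out either sedentary mouse took all 3 genes above that p.

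Marker sums of several cell types moved with them. The 5 excitatory neuron markers summed to 6141 to 6948 CPM in ELE and 6011 to 6138 CPM in sedentary mice, and the 4 CA2 and CA3 markers to 337.3 to 399.8 CPM and 320.1 to 325.6 CPM, neither overlapping. Of the 3 dentate granule cell markers 2 were called higher, although their sums overlapped (453.1 to 549.5 CPM in ELE and 370.1 to 499.4 CPM in sedentary mice). Of the 5 choroid plexus markers 4 were called lower, with sums of 128.8 to 571.5 CPM in ELE and 585.7 to 668.7 CPM in sedentary mice. Called lower were also 1 of 7 interneuron markers (median log2 fold change -0.26), 1 of 4 oligodendrocyte precursor markers and 1 of 5 striatal markers. The part of these cell types in the differences was not tested.

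The other 7 members overlapped between the SIT groups. Their log2 fold changes lay between -0.33 for Cacng2 (SE 0.185) and 0.22 for Cnih3 (SE 0.123). Cacng2 was at 76.7, 80.7 and 123.6 CPM in ELE mice and at 115.1 and 119.6 CPM in sedentary mice, so that 1 ELE mouse lay above and 2 below both sedentary mice. Without that highest mouse, TG7.4.2, Cacng2 passed the threshold at -0.58, and without sedentary mouse NT6.305 Cnih3 did at 0.39. Other single mice brought both closer to 0, Cacng2 to -0.20 without ELE mouse TG7.4.1 and Cnih3 to 0.06 without sedentary mouse NT6.306. In all, edgeR called 0 of 10 members in SIT at a background of 3.65% of genes called, with 3 at an unadjusted p under 0.05 (5.48% of genes), and DESeq2 also called 0. These shares are those of the fit to all compared SIT libraries, not of the fits without 1 mouse. The median log2 fold change of the members was 0.08, beside 0.00122 over all genes tested.

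Within the SIT mice numbered NT6 (2 ELE mice, with NT6.304, and 2 sedentary mice) Gria1 and Cnih2 had fold changes of -0.03 and -0.06. The fold change of Gria2 was 0.27. The low values of Gria1 and Cnih2 came with the set-aside mouse NT6.304, at 772.8 and 999.6 CPM. ELE mouse NT6.303, at 979.7 and 1224 CPM, lay above both sedentary mice numbered NT6. With all 8 SIT libraries the picture changed for the pore subunits, in a fit to which the background of 3.65% of genes called does not apply. The fold changes of Gria1, Gria2 and Gria3 turned to -0.10, -0.12 and -0.41, and Gria4 was called lower in ELE mice at -1.07 (edgeR, unadjusted p = 0.0127). That call rests on mice NT7.2.4 and NT7.2.3, with 43.6 and 51.5 CPM of Gria4, beside 16.1 and 17.7 CPM in the other sedentary SIT mice and 12.95 to 19.3 CPM in the ELE SIT mice. The same pair carried high interneuron and microglial markers, as given above, and the part of these in the Gria4 difference was not tested.

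In the left hippocampus the groups overlapped for each of the 10 members (10.7% of genes did not overlap), and 0 of 10 were called (background 2.07% of 17750 genes), with 0 at an unadjusted p under 0.05 (3.94% of genes) and 0 called by DESeq2. The values closest to a difference were those of Cnih2, at 1063, 1093 and 1211 CPM in ELE mice and 1167, 1334 and 1363 CPM in sedentary mice. Its log2 fold change of -0.20 (SE 0.0856, edgeR adjusted p = 0.96) had the opposite sign to that in SIT. Gria1 to Gria4 had fold changes between -0.01 and 0.06 with SEs from 0.0929 to 0.189. The 95% interval for Gria1 (-0.17 to 0.26) excludes a change as large as the threshold. In ELE mice all 5 choroid plexus (median -0.76), all 5 oligodendrocyte (median -0.18) and all 5 excitatory neuron markers (median -0.02) were lower. All 5 striatal markers were higher (median 0.45), with 0 called in each of these lists. The part of these markers in the member values was not tested.

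In the right hippocampus 0 of 10 members were called (background 1.97% of 17570 genes) by edgeR or DESeq2, with 2 at an unadjusted p under 0.05 (2.78% of genes). Gria3 had 154.2, 163.5 and 164.3 CPM in ELE mice and 127.8, 138.7 and 147.7 CPM in sedentary mice. Its groups did not overlap, as for 7.66% of genes, and the log2 fold change was 0.22 (SE 0.0875, edgeR adjusted p = 1). Cnih3 had 160.4, 174.4 and 182.2 CPM in ELE mice and 101.8, 134.7 and 166.1 CPM in sedentary mice. The lowest ELE value lay under the highest sedentary value, and the log2 fold change was 0.37 (SE 0.151, adjusted p = 1). Leaving out sedentary mouse TG9.1.1 brought Cnih3 to 0.54, and leaving out ELE mouse TG7.3.1 to 0.42, both past the threshold, while leaving out sedentary mouse TG9.2.3 brought it to 0.20. Of the 5 choroid plexus markers 4 were tested on the right and all 4 were called lower in ELE mice, with sums of 17.27 to 43.17 CPM against 34.97 to 1161 CPM. Of the 4 CA2 and CA3 markers 1 was called higher, and their sums of 343.9 to 366.4 CPM in ELE and 279.4 to 326.2 CPM in sedentary mice did not overlap. Of the 7 interneuron markers 1 was called higher (median log2 fold change 0.40), and 1 of 4 microglial markers tested and 1 of 3 endothelial markers (median -2.25) were called lower. The part of these markers in the values was not tested.

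Over the 17 libraries of all isolations, with isolation and side as factors, Cnih3 and Gria1 had the smallest p-values of the members. Cnih3 had a log2 fold change of 0.28 (SE 0.0857, edgeR adjusted p = 0.405) and Gria1 of 0.14 (SE 0.0489, adjusted p = 0.529), and both had a positive fold change in SIT, left and right. No member was called (0 of 10, background 2.31% of 18843 genes, 2 at an unadjusted p under 0.05 where 7.35% of genes were, 0 called by DESeq2). In the 12 separately isolated libraries alone Cnih3 was at 0.30 and Gria1 at 0.11. Of the 5 choroid plexus markers 4 were called lower in ELE mice in this fit (median log2 fold change -1.68), as were 1 of 7 interneuron and 1 of 5 microglial markers, and 1 of 5 markers of striatal neurons was called higher. The part of these in the member values was not tested. The 95% intervals of Gria1 (0.04 to 0.24), Gria2 (-0.03 to 0.26), Gria3 (-0.02 to 0.23) and Gria4 (-0.24 to 0.18) all lie inside the threshold in both directions.

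**Figure D2:**
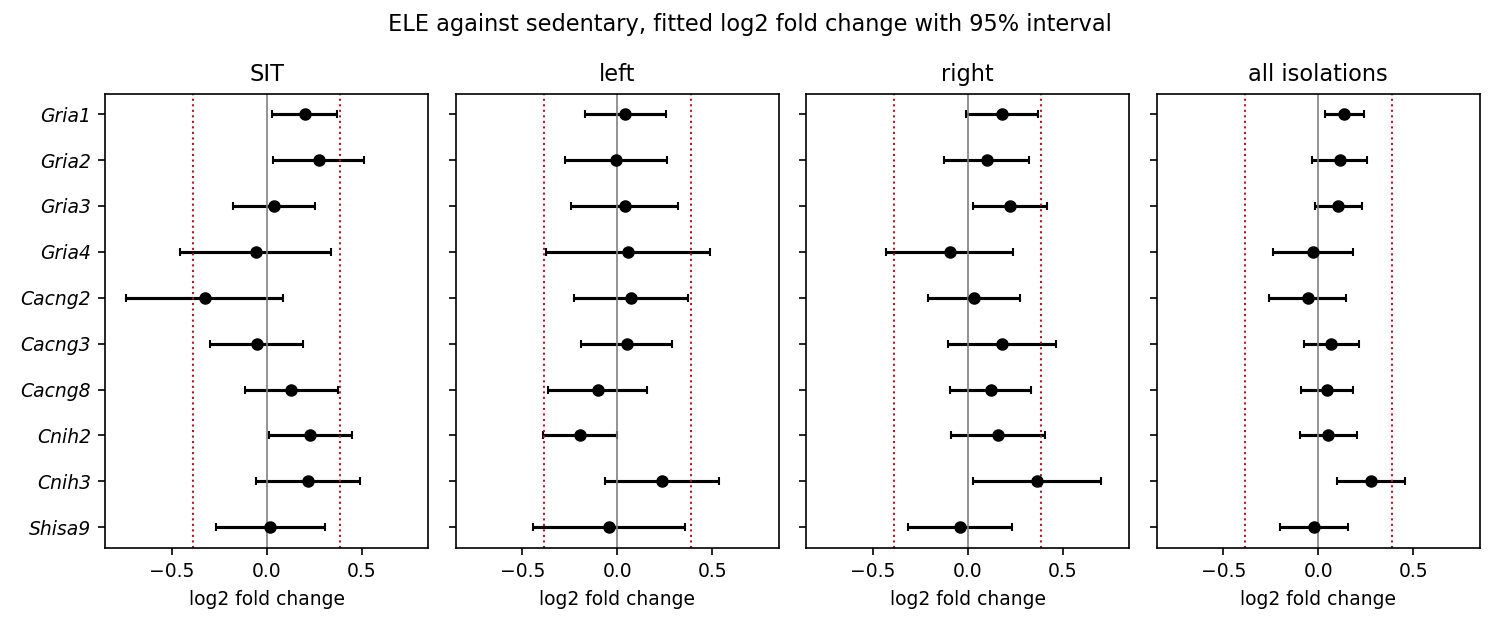
Fitted log2 fold change, ELE against sedentary, of the 10 genes in SIT, left, right and all isolations (points), with 95% intervals (bars), 0 as a grey line and the threshold of 1.31-fold as dotted lines. No point lies outside the dotted lines, and Cnih3 is right of 0 in all 4 panels.

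Whether the exercise effect differed between hemispheres was tested by the interaction of side and exercise. Cnih2 was the only member at an unadjusted p under 0.05 in this test, as 2.60% of genes were. Its exercise effect on the left minus that on the right was -0.36 on the log2 scale (SE 0.147, edgeR adjusted p = 1). On the right Cnih2 had 1284, 1306 and 1502 CPM in ELE mice and 1087, 1166 and 1415 CPM in sedentary mice, higher on average in ELE mice, whereas on the left it was lower. Under the fold threshold 0 of 10 members were called (background 2.20% of 18810 genes, DESeq2 also 0). Without any one of mice TG9.2.1, TG9.2.2, TG7.3.3 and TG9.2.4 Cnih2 was called, at -0.40, -0.41, -0.48 and -0.43. In the same test all 5 choroid plexus markers (median 2.68) and all 3 endothelial markers (median 2.48) had positive values with 0 called. So had all 5 microglial markers (median 0.56). The endothelial sum was 20.67 CPM in TG7.3.3 and at most 2.90 CPM in the other separate libraries. All 5 excitatory neuron markers (median -0.12) and all 4 CA2 and CA3 markers (median -0.15) had negative values with 0 called. So had all 3 CA1 markers (median -0.07), and 1 of 5 striatal markers was called. The part of these in the Cnih2 value was not tested.

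The balance between members was examined as log2 ratios of counts within a library, which do not depend on the scaling of libraries. The Gria1 to Gria2 ratio of counts had a median of 2.63 over the 17 libraries and ranged from 2.11 to 2.86. Gria3 to Gria2 had a median of 0.344 with a range of 0.289 to 0.394. Neither is a ratio of molecules, since the genes differ in length. Cacng8 to Cacng3 had a median of 3.33 with a range of 2.20 to 4.59, and Cnih3 to Cnih2 a median of 0.0994 with a range of 0.0738 to 0.153. On the log2 scale the SD was 0.298 for the cornichon ratio, 0.282 for the TARP ratio, 0.114 for Gria1 to Gria2 and 0.111 for Gria3 to Gria2.

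None of the 16 tests of these ratios between ELE and sedentary mice passed after adjustment. A two-sided exact permutation test cannot go below p = 0.1 with the mice of SIT or of 1 side, and with left and right together, permuted within side, it cannot go below 0.005. The smallest p over left and right together was that of Cnih3 to Cnih2, which was 0.33 higher in ELE mice on the log2 scale (exact permutation p = 0.085, adjusted p = 0.533). Gria3 to Gria2 was 0.08 higher (exact permutation p = 0.14, adjusted p = 0.533), Gria1 to Gria2 0.07 higher (exact permutation p = 0.3, adjusted p = 0.686) and Cacng8 to Cacng3 differed by -0.11 (exact permutation p = 0.435, adjusted p = 0.727). Single mice moved these differences by over 1.5 times, Gria1 to Gria2 to 0.02 without sedentary mouse TG9.2.3, Cacng8 to Cacng3 to -0.02 without ELE mouse TG7.3.2, and Gria3 to Gria2 to 0.05 without sedentary mouse TG7.3.3 and 0.13 without sedentary mouse TG9.1.1. On the left alone Gria3 to Gria2 was 0.04 higher, with ratios of 0.343 to 0.355 in ELE and 0.335 to 0.338 in sedentary mice that did not overlap (exact permutation p = 0.1, the smallest possible there, adjusted p = 0.533). In SIT the Gria3 to Gria2 difference had the opposite sign, at -0.23, and the groups did not overlap either. Its ratios were 0.289 to 0.351 in ELE and 0.358 to 0.394 in sedentary mice (exact permutation p = 0.2). Opposite in sign to left and right together were also Gria1 to Gria2 in SIT, at -0.07 (exact permutation p = 0.9), and Cacng8 to Cacng3 in SIT, at 0.18 (exact permutation p = 0.2). The cornichon ratio in SIT did not differ measurably, at 0.000758 (exact permutation p = 1).

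**Figure D3:**
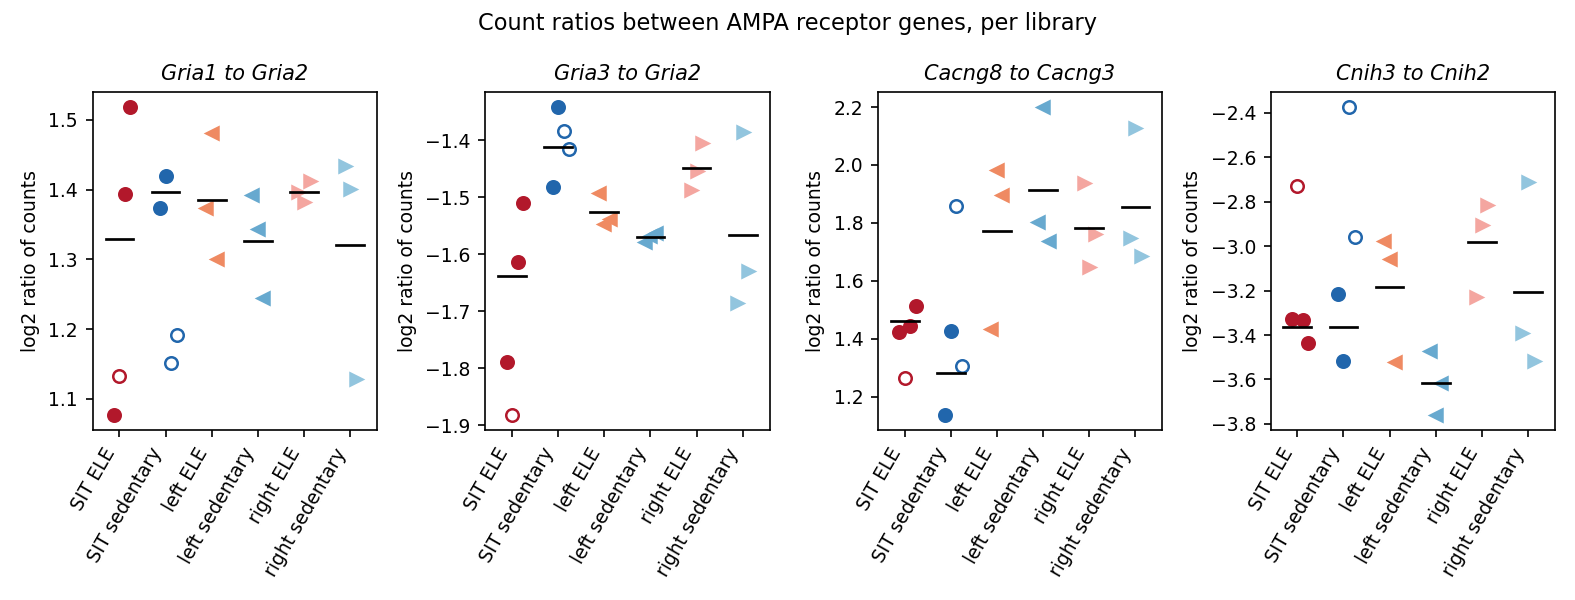
Log2 ratios of counts for Gria1 to Gria2, Gria3 to Gria2, Cacng8 to Cacng3 and Cnih3 to Cnih2 in each library by group, with the mean of the compared libraries as a black bar and the libraries set aside as open symbols. The groups overlap in most panels, and Cacng8 to Cacng3 is lower in the 5 compared SIT libraries (2.20 to 2.85 as a ratio) than in most separate ones.

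The clearest difference by side was in Cnih3. Its level was 105.5, 131.2 and 134.9 CPM in left ELE mice and 95.1, 98.5 and 123 CPM in left sedentary mice, beside the right-side values of 160.4 to 182.2 CPM in ELE and 101.8 to 166.1 CPM in sedentary mice given above. Each right ELE mouse was above each left ELE mouse, while the sedentary sides overlapped. With exercise as a covariate Cnih3 was lower on the left by a log2 fold change of -0.41 (SE 0.108, edgeR unadjusted p = 0.002, adjusted p = 1), and it was the only member called (1 of 10, background 1.14% of 18283 genes, with 2.50% at an unadjusted p under 0.05, DESeq2 also 1). The difference was -0.34 in sedentary mice alone, where Cnih3 was no longer called, and -0.47 in ELE mice alone. The call was lost, with fold changes between -0.34 and -0.38, when TG9.1.1, TG9.2.1, TG9.2.2 or TG9.2.4 was left out.

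The remaining 9 members differed less between the sides. Gria1, Gria2 and Gria3 had log2 fold changes of -0.09, -0.09 and -0.12 (SEs 0.0637 to 0.0791) and Cnih2 of -0.10 (SE 0.0861), and the remaining 5 lay between -0.07 and 0.03. Leaving out 1 library moved these 4 by over 1.5 times. Without ELE mouse TG9.1.4 Gria1 was at -0.05, Gria2 at -0.03 and Gria3 at -0.06, and Cnih2 was at -0.05 without ELE mouse TG7.3.1 and at -0.16 without sedentary mouse TG9.1.1. In sedentary mice alone Cnih2 was higher on the left, at a mean of 1288 against 1223 CPM. Markers of hippocampal fields were compared beside Cnih3. The 4 markers of CA2 and CA3 summed to 285.4 to 339.1 CPM in left ELE and 343.9 to 366.4 CPM in right ELE mice, and to 308.1 to 355 CPM in left and 279.4 to 326.2 CPM in right sedentary mice. The 3 CA1 markers summed to 506.2 to 628.7 CPM in left ELE and 613 to 659.4 CPM in right ELE mice, and to 579.2 to 641.5 CPM in left and 596.2 to 657.2 CPM in right sedentary mice. The 3 markers of dentate granule cells summed to 350 to 435.8 CPM in left and 361.1 to 433.7 CPM in right ELE mice, and to 349.1 to 422.7 CPM and 350.8 to 441.6 CPM in sedentary mice. By their medians the sums of the CA2 and CA3 markers (356.2 CPM, beside 314.9 to 330.7 CPM), the CA1 markers (649.1 CPM, beside 596.5 to 608 CPM) and the excitatory neuron markers (8654 CPM, beside 7826 to 8254 CPM) were all highest in the right ELE mice among the separate groups, as Cnih3 was. The CA2 and CA3 range of the right ELE mice lay above those of the left ELE and right sedentary mice and met only that of the left sedentary mice, while the CA1 and excitatory ranges overlapped those of each other group. By median the interneuron sum was also highest in the right ELE mice (60.87 CPM, beside 43.94 to 51.77 CPM). Its range overlapped those of each other group. With exercise as a covariate the median side difference of the CA2 and CA3 markers was -0.02 on the log2 scale. All 5 choroid plexus markers had higher fitted levels on the left (median 2.21, 1 called), and so had all 5 oligodendrocyte markers (median 0.19, 0 called, 2 at an unadjusted p under 0.05). Lower on the left, as Cnih3 was, were the fitted levels of all 3 endothelial markers (median -0.97, 1 called) and all 5 excitatory neuron markers (median -0.08, 0 called, 1 at an unadjusted p under 0.05). The endothelial sum was 20.67 CPM in right sedentary mouse TG7.3.3 and at most 2.90 CPM in the other separate libraries. The part of these markers in the Cnih3 values was not tested.

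**Figure D4:**
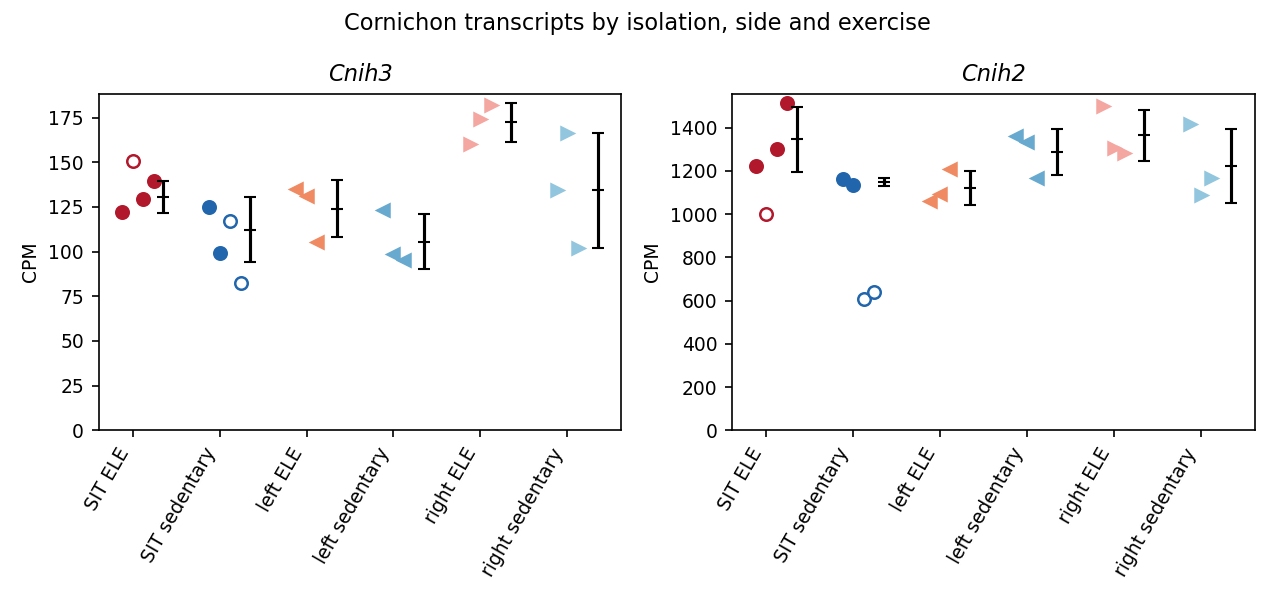
CPM of Cnih3 and Cnih2 in each library by isolation, side and exercise, with mean and SD of the compared libraries beside the points and open symbols for the libraries set aside. Cnih3 is highest in the right ELE mice (160.4 to 182.2 CPM), and Cnih2 is lowest in 2 sedentary SIT mice that were set aside (607.1 and 638.6 CPM).

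SIT and separate isolation were compared with exercise as a covariate. With edgeR or DESeq2 0 of 10 members were called (background 14.4% of 18843 genes). At an unadjusted p under 0.05 were 5 of 10, beside 36.0% of genes, and the median log2 fold change of the members was -0.13, beside -0.009 over all genes. Cacng8 alone had an adjusted p under 0.05, as 25.5% of genes did, with a log2 fold change of -0.27 in SIT (SE 0.0711, edgeR adjusted p = 0.00716). It had 229.2, 242.8, 248.7, 248.9 and 293.4 CPM in the 5 SIT libraries and a range of 258.7 to 363.1 CPM with a median of 302.8 CPM in the 12 separate ones, and the ranges overlapped through 1 SIT library. In sedentary mice alone the difference was -0.34 and in ELE mice alone -0.23. Gria1 (-0.13, SE 0.0555) and Gria3 (-0.15, SE 0.0691) were also lower and Cacng3 (0.16, SE 0.0746) and Shisa9 (0.20, SE 0.0908) higher, with edgeR adjusted p from 0.0962 to 0.129. The isolations differed in procedure, in the use of both hippocampi or 1, and in the numbering of the mice, and these cannot be told apart. Cell type markers differed as well. Of the 7 interneuron markers 5 were called higher in SIT (median log2 fold change 0.74, sums of 64.7 to 77.2 against 41.1 to 75.3 CPM), and of the 5 astrocyte markers 4 were called lower (median -0.56, sums of 1682 to 3180 against 2204 to 5123 CPM). The 5 excitatory neuron markers summed to 6011 to 6948 CPM in SIT and 7281 to 9408 CPM in separate libraries, without overlap. In other lists 1 of 5 oligodendrocyte and 1 of 4 CA2 and CA3 markers were called higher in SIT, and 1 each of the 5 excitatory neuron, 4 oligodendrocyte precursor, 3 CA1 and 5 striatal markers lower. Mitochondrial genes took 0.245% to 0.523% of counts in the 5 SIT libraries and 0.0704% to 0.122% in the 12 separate ones. The part of these in the member differences was not tested.

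The libraries set aside showed how far these levels can move. In the sedentary pair (NT7.2.3, NT7.2.4) Gria4 made up between 2.71% and 3.30% of the per-length pore level, beside 1.08% to 1.77% in the 17 compared libraries. Cnih2 was at 607.1 and 638.6 CPM against at least 1063 CPM, and its share of the auxiliary level was 68.2% to 71.4% against 76.7% to 81.9%. Gria2 (508.7 and 517.6 CPM) and Gria3 (195.1 and 194.2 CPM) were above the highest compared library, at 464.5 and 164.3 CPM, and Gria1 (1130 and 1183 CPM) was in the upper part of its range of 873 to 1206 CPM. The CA2 and CA3 sum was below the compared libraries at 191.5 and 206.1 CPM against at least 279.4 CPM, and so was the dentate sum at 338.9 and 297.6 CPM against at least 349.1 CPM. The CA1 sum was below them in NT7.2.3 (422.3 CPM) and within their range of 455 to 659.4 CPM in NT7.2.4 (500.9 CPM), and the oligodendrocyte sum was above them at 3800 and 4267 CPM against at most 3167 CPM. The 2 mice also had 8.64% and 9.64% of counts on mitochondrial genes, where the 17 compared libraries had at most 0.523%, and Gad2, which makes GABA in interneurons, at 190.3 and 181.1 CPM against at most 10.4 CPM. ELE mouse NT6.304 had the lowest Gria1 (772.8 CPM), Gria3 (95.6 CPM), Gria4 (12.95 CPM) and Shisa9 (20.9 CPM) of the 20 libraries, with Gad2 at 34.1 CPM. Whether interneuron RNA, other cells, the mix of hippocampal fields or RNA quality had a part in these levels was not tested.

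**Figure D5:**
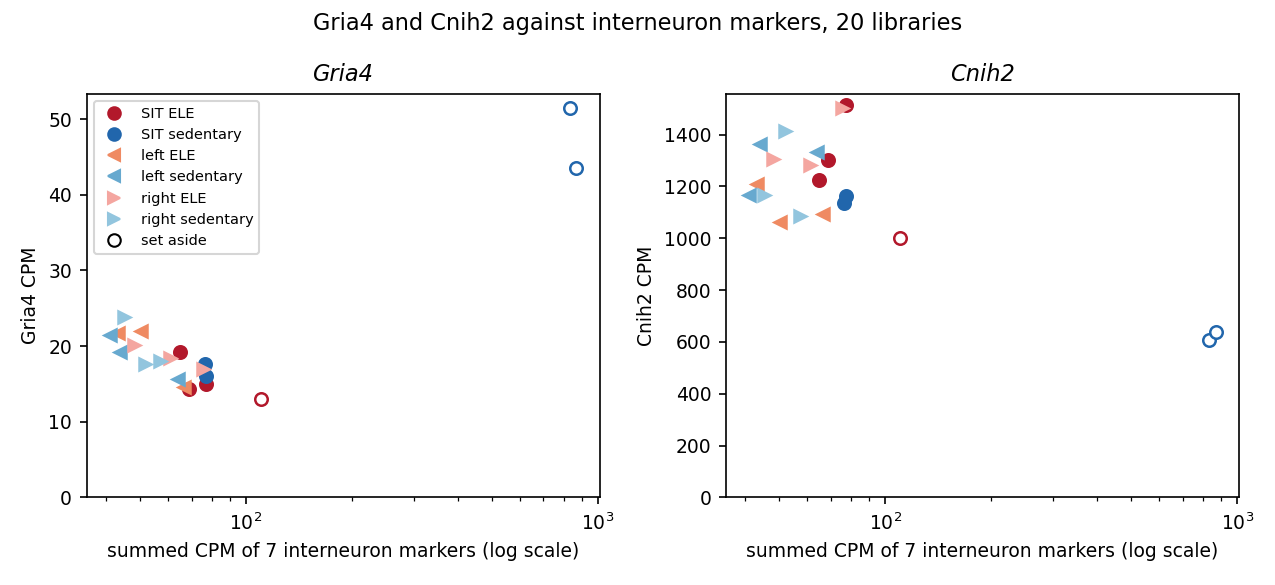
CPM of Gria4 and of Cnih2 in the 20 libraries against the summed CPM of 7 interneuron markers on a log axis, with open symbols for the libraries set aside. The 2 sedentary mice at 830.7 and 868.5 CPM of markers have the highest Gria4 and the lowest Cnih2.

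The other genes of AMPA receptor and glutamate receptor biology were described from 5 lists of 64 genes. They held 25 further auxiliary or interacting proteins, 20 anchoring and trafficking proteins, 3 editing enzymes, 7 NMDA receptor subunits and 9 genes of kainate and delta receptors. For ELE against sedentary mice edgeR called 4 of 63 tested in SIT, 0 of 63 on the left and 1 of 64 on the right, that is 4 where the background was 3.65% and 0 and 1 where it was 2.07% and 1.97%. DESeq2 called 4, 2 and 1 of them. Cacng5, a TARP, was higher in SIT ELE mice (6.04 to 11.4 against 5.29 to 5.82 CPM, log2 fold change 0.75). Gsg1l, an auxiliary protein that slows recovery from desensitization, was lower (33.4 to 44.6 against 51.3 to 57.9 CPM, -0.54), and so were Olfm2 (31.4 to 46.7 against 57.8 to 59.5 CPM, -0.51) and Grip2, a scaffold that binds the tail of GluA2 (1.32 to 1.89 against 2.96 to 2.97 CPM, -0.89). The edgeR adjusted p of each was 0.905. On the right Grin3a, an NMDA receptor subunit, was lower at -0.39 and its interaction with side was 0.52 (adjusted p = 1 for both). Over all isolations Grip2 was called at -0.41 (adjusted p = 0.551), the only 1 of 64 (background 2.31%), and by side 0 of 64 were called (background 1.14%), also 0 by DESeq2. At an unadjusted p under 0.05 were 12 of 63 in SIT (5.48% of genes), 0 of 63 on the left (3.94%), 3 of 64 on the right (2.78%), 6 of 64 over all isolations (7.35%) and 2 of 64 by side (2.50%).

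Between isolations 16 of the 64 were called, 4 higher and 12 lower in SIT, beside a background of 14.4% of genes. The interneuron, astrocyte and excitatory neuron markers given above moved with the same contrast. Of the 7 NMDA receptor subunits 6 had negative fold changes and 4 were called lower. The median log2 fold change was -0.53 over that list, beside -0.13 over the AMPA receptor members and -0.009 over all genes. Grin2c had 29.3 to 44.8 CPM in SIT and 61.5 to 107.9 CPM in separate libraries (log2 fold change -1.26, edgeR adjusted p = 2.82e-07). Grin2b, the subunit that dominates early in life, had 404.8 to 534.4 against 605 to 861.2 CPM (-0.60, adjusted p = 2.03e-05). Myo5a, a motor that carries AMPA receptors into spines, had 127.2 to 153.7 against 171.1 to 220.8 CPM (-0.49, adjusted p = 1.15e-05), and Epb41l1, which anchors GluA1 to actin, was lower at -0.39 (adjusted p = 0.000296). Grik5, a kainate receptor subunit, had 367.9 to 550.2 against 523.9 to 691 CPM (-0.44, adjusted p = 0.000418).

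The genes whose levels followed the pore subunits most closely were found over the 20 libraries with group means removed, among 9597 genes. The Pearson correlations are descriptions over libraries that share numbering of mice and include the 3 libraries that stand apart. For Gria1 they were Sept3 (0.959), Ralgapa2 (0.933) and Slitrk3 (0.900), and for Gria2 AC127249.1 (0.943), Adam22 (0.936) and Thap12 (0.934). For Gria3 they were Chl1 (0.972), Adam22 (0.946) and Grm5 (0.939), and for Gria4 AI504432 (0.946), Tmem106b (0.926) and Xiap (0.925). Over the 17 compared libraries these values lay between 0.707 for AI504432 with Gria4 and 0.957 for AC127249.1 with Gria2. Among the members themselves Gria2 and Gria3 were the closest pair over 20 libraries (0.889), with 0.760 over the 17, while Gria1 and Gria4 went from 0.634 to -0.023 once the 3 libraries were left out.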

How the data were processed

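Ribosome-bound poly(A) RNA was sequenced from 20 hippocampal libraries, each of 1 mouse. The authors aligned reads to GRCm38 with STAR 2.7.3a, removed duplicates with Picard 1.87, counted read pairs by strand over exons with GenomicAlignments, and deposited raw counts per gene without normalization. Columns carry mouse numbers, placed in groups through the study's list of mice. For SIT, the 5 libraries were those whose mean normalized counts equal the means the study lists. The 24 columns of a wild-type table could not be tied to samples and were not used.

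Counts were scaled by TMM, filtered with filterByExpr and tested with the quasi-likelihood test of edgeR 4.0.16 (R 4.3.3) on all genes, with Benjamini-Hochberg adjustment; SE is the log2 fold change over the square root of F. A gene was called where its unadjusted p was under 0.05 and it changed by over 1.31-fold. Ratios were tested by exact permutation. CPM per kb used merged exons. Genes on the other strand overlap the loci of Cacng2, Cacng8 and Cnih2, and the counting by strand tells these apart. Counts were also simulated with a fixed dispersion of 0.02 for every gene, where 200 genes differed by 1 on the log2 scale. In these an adjusted p under 0.05 recovered 81.5% in the SIT design, 87.5% on the left, 88.5% on the right, 95% over all isolations, 52.5% for the interaction, 97% by side and 90% by isolation. These rates do not apply to smaller differences, such as those of the members in the compared libraries.

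The text names the 10 members, up to 5 called genes of the 5 lists with the smallest p per comparison, and for each pore subunit the 3 genes most like it. Alternatives were DESeq2 1.42.0, median-of-ratios size factors, no filter, all 8 SIT libraries, NT6 mice only, a replicate block, the longest transcript as length and leaving out each library. Fits within exercise groups, within separate isolation and the block for the interaction were chosen after seeing the data. The members and lists were chosen with earlier results of these data known.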

Additional observations from a re-analysis of the deposited data

Results flagged for a closer look

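The exercise effect on Cnih2 differed between the sides by -0.3556 on the log2 scale, left minus right (edgeR interaction term, unadjusted p = 0.0309, adjusted p = 1), with lower means in ELE mice on the left (1123 against 1288 CPM) and higher ones on the right (1364 against 1223 CPM). With 10 members tested for this difference, 1 at an unadjusted p under 0.05 does not pass adjustment, and no other member did so. The 10 members in the SIT groups of 4 mice gave 20 groupings. In 0 of these did the gap of a mouse to its nearest neighbour exceed 0.829 of the range. The rule flags only a mouse that stands alone and cannot flag a pair lying close together. The set-aside sedentary pair lay close together in Gria4 (43.6 and 51.5 CPM) and Cnih2 (607.1 and 638.6 CPM). The 0 therefore cannot tell whether that pair stood apart.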

How the results depend on the processing

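The count of members called stayed the same under DESeq2, median-of-ratios size factors and no filter in each of the 7 comparisons. With all 8 SIT libraries it was 1 (Gria4) in SIT and 1 (Gria4) over all isolations. In SIT the fold changes of Gria1, Gria2 and Gria3 then turned to -0.0988, -0.116 and -0.407, and the log2 ratios turned to -0.02076 for Cacng8 to Cacng3 and -0.1901 for Cnih3 to Cnih2. Within the SIT mice numbered NT6, Gria1, Gria3 and Cnih2 turned to -0.0286, -0.151 and -0.0607. In sedentary mice alone 0 members were called by side, and Cnih2 turned to 0.0767. With the longest transcript as length the median shares were 72.87% for Gria1, 14.98% for Gria2, 10.64% for Gria3, 12.94% for Cacng8, 78.03% for Cnih2 and 0.9373% for Shisa9. The cause of these shifts was not tested, other than the length, which sets the shares.

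Leaving out 1 library at a time gave from 0 to 1 members called in SIT, on the right, in the interaction and by side, and 0 in the other comparisons. Where this leaves 1 sedentary SIT mouse, that mouse is assumed to vary like the ELE mice. The log2 fold change in SIT ranged from -0.0265 to 0.109 for Gria3 and from -0.198 to 0.0273 for Gria4. The log2 ratios ranged, for Gria1 to Gria2, from -0.1616 to 0.05898 in SIT and from -0.02055 to 0.1324 on the right, for Cnih3 to Cnih2 from -0.1502 to 0.1517 in SIT, and for Cacng8 to Cacng3 from -0.2465 to 0.02792 on the left and from -0.1557 to 0.06615 on the right. Of 47 further fold changes of members that are not printed, the sign changed 19 times under other settings and 56 times when a library was left out, in each case for a change of at most 0.203 in size as fitted on all compared libraries. The largest value with a changed sign was 0.643 in size.

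The first part of the mouse number was tried as a replicate block. Of 6 pairs of mice that share it within a side, 3 had deviations correlated above 0.1 (range -0.102 to 0.291). With so few mice per group these correlations cannot decide whether the numbers pair the samples. With the replicate block 1 member was called on the right (Cnih3, log2 fold change 0.389). The background of 1.97% of genes given for the right is that of the fit without the block. The count of members called did not change on the left, over all isolations, by side or for the interaction.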
